A study of Bos taurus with 8 samples.

Results

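MHC class I antigen presentation was followed through 9 genes in bovine embryo-derived stem-like cell (eSLC) lines and in somatic cells (SCs), and 8 of them could be read on the arrays, out of 12603 genes that the probes named. The 9 genes were B2M, BOLA, BOLA-NC1, TAP1, TAP2, TAPBP, PSMB8, PSMB9 and CD74. A probe was taken as a probe of one of them when its accession was listed for that gene in the RefSeq table of the cattle genome. This gave 23 probes, and no probe carried an accession of BOLA-NC1, which was therefore not analysed here. RNA was labelled with 1 dye and hybridized to 8 arrays, each holding 1 cell sample. The eSLC lines were grown from blastocysts on mouse STO feeder cells in a medium with N2 and B27 supplements and 3 kinase inhibitors, PD184352, SU5402 and CHIR99021. Their embryos came from in vitro production (IVP, lines I2 and I9), from nuclear transfer of an ear skin cell (NT, lines N2 and N7) or from parthenogenesis (PA, lines P1 and P4), and RNA was taken between passages 30 and 36. The SCs were grown in DMEM with serum and sampled at passage 5 (SC P5) and passage 10 (SC P10). All cells came from HanWoo cattle. Each condition had 2 arrays, those of an origin were different lines, and those of SCs were 2 passages. The p-values therefore pool the spread between lines with that between passages of SCs. The tissue of the SCs and whether they were the NT donor cells are not given in the sources used here. Nor is it given whether their 2 passages were independent cultures, or what share of mouse feeder RNA the eSLC samples held.

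MHC class I molecules carry short peptides from inside the cell to its surface, where T cells and natural killer cells inspect them. The proteasome cuts proteins into peptides, the TAP transporter moves these into the endoplasmic reticulum, and tapasin helps to load them on a complex of a heavy chain and beta-2-microglobulin. Interferon gamma raises most of these genes together, and the trophoblast of the placenta, which grows from the trophectoderm of the blastocyst, is known for low class I display in many mammals.

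Signals were background-subtracted, divided by the 75th percentile of their array and printed with that percentile set to 1000, and a floor of 13.3 was put under values too dim to order. A gene was represented by its brightest probe, and the level of a probe is not comparable with that of another probe. On this scale the SC arrays were high for fibroblast markers (summed signal of 9 genes 652520 to 808761, against 5461 to 10662 on the eSLC arrays) and the eSLC arrays were high for trophectoderm markers (summed signal of 9 genes 400610 to 1045080, against 3449 to 4576 on the SC arrays). Of the early lineage markers, POU5F1 and NANOG were not called higher in eSLCs (limma adjusted p = 0.164 and 0.208). POU5F1 still lay above both SC arrays in every line, at 30.7 to 898 against 16.3 and 26.0 (log2 difference 2.05, SE 1.07). Its value of 898 was that of N7. NANOG lay near the floor, at 13.3 to 35.4 in eSLCs. By these lists the eSLC samples stood out most by trophectoderm genes. The part of this in the results below was not tested. Across all genes tested, I9 and N2 were the most alike of all pairs of arrays (Pearson r = 0.994) although their embryos were of different origin, while N7 and P1 had the lowest value within the eSLCs (r = 0.947). I2, I9, N7 and SC P5 shared slide 1, and slide 2 held SC P10, P4, P1 and N2. IVP-eSLCs and PA-eSLCs therefore never shared a slide, and slide and origin cannot be told apart between them.

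Of the 8 measured genes, PSMB8 and PSMB9 were lower in the 6 eSLC arrays than in the 2 SC arrays, TAP1 was higher, and the other 5 did not pass the test. PSMB8 was 24.3-fold lower and PSMB9 2.36-fold lower, while TAP1 was 5.04-fold higher. A gene was called when its Benjamini-Hochberg adjusted p from limma over the 10957 genes tested was under 0.05 and its difference at least 2-fold. Over all genes tested, 15.7% were called lower and 19.7% were called higher in eSLCs, so 2 of 8 lower and 1 of 8 higher are shares not far from this background. All 8 genes were well above background on all 8 arrays. The 6 eSLC arrays lay below both SC arrays for BOLA, TAPBP, PSMB8 and PSMB9, which held for 23.6% of all genes tested, and above both for TAP1, which held for 34% of them. The median log2 difference was -0.83 over the 8 genes and 0.23 over all genes tested. In bulk RNA, fewer cells of a type and less RNA per cell cannot be told apart.

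**Figure D1:**
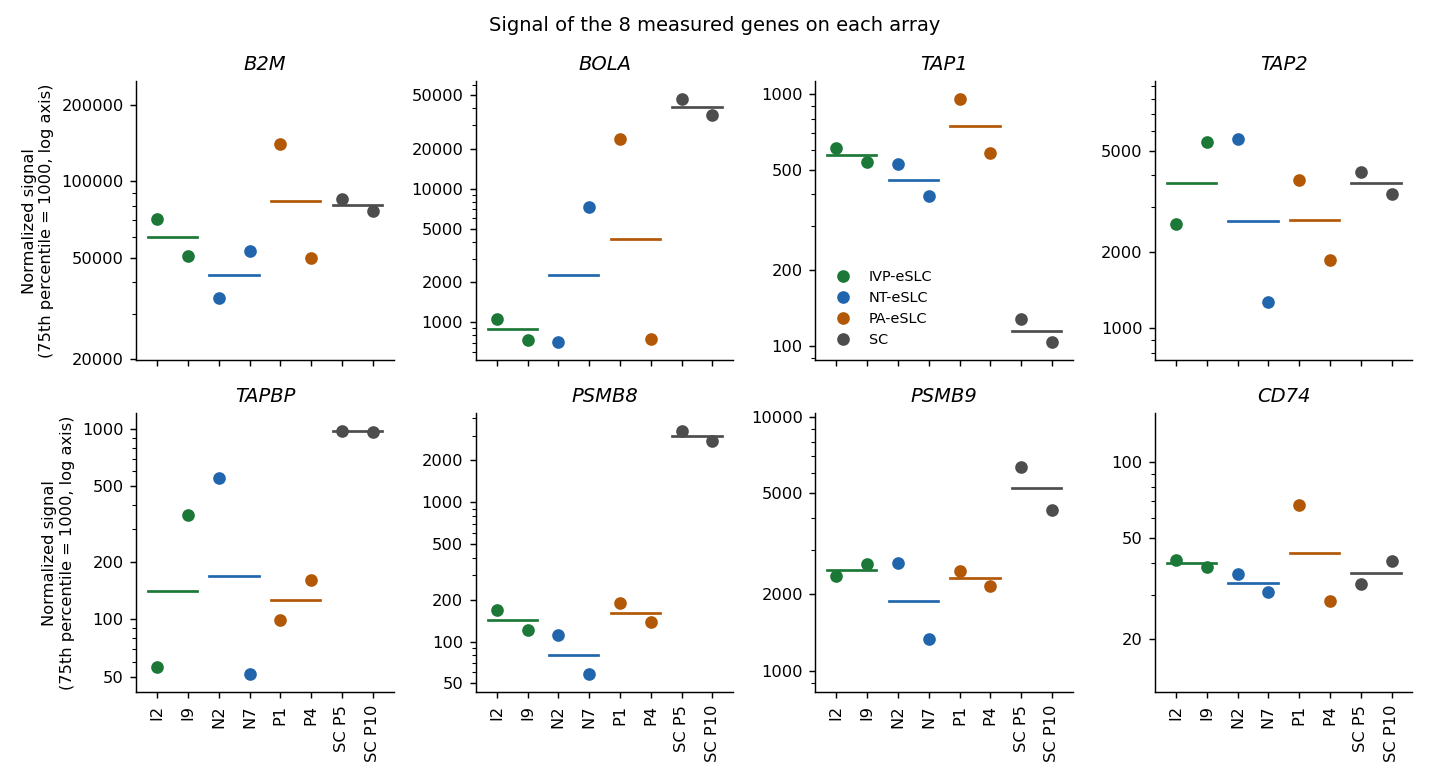
Normalized signal (log axis, 75th percentile of the array = 1000) of the 8 measured genes on each of the 8 arrays, with 1 point per array and a line at the geometric mean of the 2 arrays of a condition. BOLA, TAPBP, PSMB8 and PSMB9 have every eSLC point below both SC points, TAP1 has every eSLC point above them, and B2M, TAP2 and CD74 overlap.

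B2M encodes beta-2-microglobulin, the light chain that every classical class I molecule needs. Its signal was 71062 in I2, 50611 in I9, 34685 in N2, 52808 in N7, 140520 in P1 and 49561 in P4, and it was 85214 in SC P5 and 76258 in SC P10. All eSLC lines but P1 lay below both SC arrays and P1 lay above both, so the groups overlapped. The log2 difference of eSLCs from SCs was -0.43 (SE 0.42, 95% interval -1.47 to 0.61, limma adjusted p = 0.435), and the 4 probes of B2M gave differences from -0.42 to -0.55. The highest line exceeded the lowest by 4.05-fold, and 14.0% of all genes tested had as wide a range over the eSLC arrays.

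BOLA, a gene for a class I heavy chain, had the widest range of the 8 genes over the eSLC lines. Its signal was 1064 in I2, 738 in I9, 711 in N2, 7286 in N7, 23586 in P1 and 746 in P4, and 46779 and 35467 in SC P5 and SC P10. I2, I9, N2 and P4 lay close together, N7 and P1 lay far above them, and all 6 lay below both SC arrays. The range over the lines was 33.2-fold, a width that 1.22% of all genes tested reached, and the SC arrays differed by 1.32-fold. The log2 difference from SCs was -4.32 (SE 1.44, 95% interval -7.84 to -0.80), and its limma adjusted p of 0.0505 missed the threshold. Without P1 the log2 difference was -5.15, and without N7 it was -4.88. With all lines kept, BOLA was called with normexp (limma adjusted p = 0.0340), median scaling (0.0466) and quantile normalization (0.0400). The filter on all 8 arrays (0.0338) and the mean of the probes (0.0277) called it too, so the call depended on the processing. Over the alternatives the adjusted p ranged from 0.0180 to 0.707.

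Bovine class I heavy chains are a family of similar genes that differ between animals in number and in sequence. A probe may therefore read several of them or miss an allele, and BOLA is reported as uncertain for that reason. The 3 BOLA probes did not order the lines alike. Probe A_73_P098582 gave 1424 in I2, 611 in I9, 368 in N2, 3155 in N7, 10986 in P1 and 556 in P4, with 28212 and 18406 in the SC arrays, so P1 and N7 were again the highest lines. Probe A_73_P041976 gave 1290 in I2, 2903 in I9, 4379 in N2, 704 in N7, 2922 in P1 and 572 in P4, with 10274 and 7791 in the SC arrays. Here N2 and I9 were the highest lines and N7 was among the lowest. The log2 differences from SCs were -4.32, -4.07 and -2.45 for the 3 probes. Whether different class I genes or alleles stand behind these orders was not tested.

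JSP.1, another class I heavy chain gene, had 3 probes that ordered the lines more alike. Its brightest probe read 19099 in I2, 21165 in I9, 16959 in N2, 3717 in N7, 22872 in P1 and 7688 in P4, against 79931 and 62419 in SC P5 and SC P10. All eSLC lines lay below both SC arrays. N7, the line with the second highest signal on the brightest BOLA probe, had the lowest JSP.1 signal. JSP.1 was called lower, with a log2 difference of -2.46 (SE 0.66, limma adjusted p = 0.0253), and its other probes gave -2.35 and -2.57. The call was lost without I2 (adjusted p = 0.0704), without I9 (0.0578), without P4 (0.0638), without SC P5 (0.186) and without SC P10 (0.139).

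**Figure D2:**
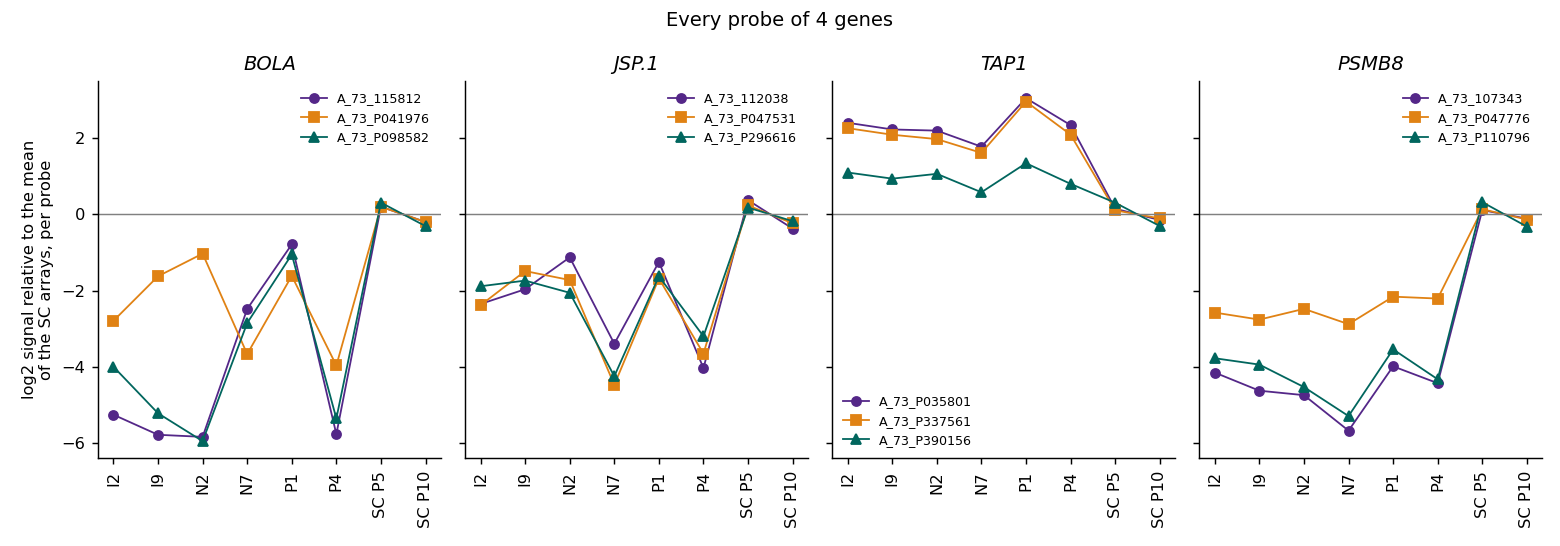
Log2 signal of every probe of BOLA, JSP.1, TAP1 and PSMB8 on each array, relative to the mean of the 2 SC arrays for that probe (0 line). The BOLA probe A_73_P041976 lies above the other BOLA probes in I2, I9, N2 and P4 and below them in N7 and P1. The probes of TAP1 and of PSMB8 keep 1 direction on all eSLC arrays and differ in size.

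TAP1 and TAP2 encode the subunits of the peptide transporter, and they did not move together. TAP1 had a signal of 610 in I2, 540 in I9, 528 in N2, 395 in N7, 954 in P1 and 584 in P4, and of 128 in SC P5 and 104 in SC P10. The lowest eSLC line, N7, lay above both SC arrays. The log2 difference was 2.33 (SE 0.25, 95% interval 1.72 to 2.94, limma adjusted p = 0.000827). Against the same SC arrays it was 2.32 for IVP-eSLCs (limma adjusted p = 0.00251), 1.99 for NT-eSLCs (0.00490) and 2.70 for PA-eSLCs (0.00143). TAP1 was called higher in all 3 comparisons, as were 17.7%, 15.8% and 20.4% of all genes tested. The other TAP1 probes gave 2.17 and 0.97, so the size depended on the probe and the last one stayed under 2-fold. Over all single probes, 17% were called higher by limma. The difference was 1.99 within slide 1 and 2.68 within slide 2. Without I9 and N2, a setting added after seeing the data, the call of NT-eSLCs was lost (1.78, adjusted p = 0.0593).

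In the table of values that the authors normalized, the TAP1 difference of the probe used was 0.23 and was not called (limma adjusted p = 0.819). In that table, 10237 of 43653 probes held values for SC P5 and SC P10 that were equal within 3%, this probe among them, together with the probes used for B2M, TAP2, TAPBP and CD74. A TAP1 probe outside that set, A_73_P337561, had a log2 difference of 2.27 in the same table and of 2.17 in the scanner output. The remaining TAP1 probe had 1.06 and 0.97.

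TAP2 was read by 1 probe, at 2568 in I2, 5395 in I9, 5550 in N2, 1268 in N7, 3821 in P1 and 1856 in P4, and at 4134 and 3394 in SC P5 and SC P10. I9 and N2 lay above both SC arrays, I2, N7 and P4 lay below both, and P1 lay between them. The log2 difference was -0.33 (SE 0.63, 95% interval -1.88 to 1.22, limma adjusted p = 0.689), an interval that includes a 2-fold change in either direction. The lines differed by 4.38-fold, as widely as 12.4% of all genes tested. Within slide 1 the difference was -0.67 and within slide 2 it was 0.0033, and without N7 it turned to 0.022.

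TAPBP encodes tapasin, the chaperone that holds the empty heavy chain at the transporter. Its single probe read 56.3 in I2, 354 in I9, 551 in N2, 51.5 in N7, 99.2 in P1 and 161 in P4, and 975 and 969 in SC P5 and SC P10. All eSLC lines lay below the SC arrays, with I9 and N2 nearest to them, and the lines spread over 10.7-fold, as widely as 4.22% of all genes tested. The log2 difference of -2.75 (SE 1.04, 95% interval -5.31 to -0.19) had a limma adjusted p of 0.0747 and was not called. Without N2 it was -3.32 with an adjusted p of 0.0325, and without both I9 and N2, again chosen after seeing the data, it was -3.76 with an adjusted p of 0.00560. In the table normalized by the authors it was -2.73 with a limma adjusted p of 0.0148. However, the TAPBP probe is among those with values equal within 3% for SC P5 and SC P10 in that table. On the scale used here, N7 read 269 and P1 read 259 there, against 51.5 and 99.2 in the scanner output. That call therefore adds little to the result above.

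PSMB8 and PSMB9 encode inducible proteasome subunits that replace constitutive ones to form the immunoproteasome. PSMB8 had a signal of 168 in I2, 121 in I9, 111 in N2, 58.4 in N7, 188 in P1 and 139 in P4, while SC P5 read 3232 and SC P10 read 2765. Every eSLC line was more than 10-fold below both SC arrays, and N7 was the lowest. The log2 difference was -4.60 (SE 0.30, 95% interval -5.35 to -3.86, limma adjusted p = 0.000132). By origin it was -4.39 for IVP-eSLCs (adjusted p = 0.000491), -5.21 for NT-eSLCs (0.000277) and -4.21 for PA-eSLCs (0.000560), all against the same SC arrays and all called lower, as were 14.6%, 13.9% and 14.9% of all genes tested. Its 3 probes gave -4.60, -4.24 and -2.51. Among single probes, where 16.4% of 34426 were called lower by limma, all 3 were called.

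PSMB9 differed less. Its signal was 2369 in I2, 2639 in I9, 2661 in N2, 1339 in N7, 2485 in P1 and 2155 in P4, and 6381 and 4285 in SC P5 and SC P10. The lines other than N7 lay close together, and all 6 lay below both SC arrays. The log2 difference was -1.24 (SE 0.31, 95% interval -1.99 to -0.48, limma adjusted p = 0.0199). It was -1.06 for IVP-eSLCs (adjusted p = 0.0706, not called), -1.47 for NT-eSLCs (0.0289) and -1.18 for PA-eSLCs (0.0496). The call against all eSLCs was lost without I2 (adjusted p = 0.0540), without P4 (0.0598), without SC P5 (0.168) and without SC P10 (0.0626), and with the SC arrays taken as 1 sample (0.0996). The call of NT-eSLCs was lost without any 1 array other than N2 (adjusted p between 0.0552 and 0.166), and that of PA-eSLCs without any 1 of I2, I9, P1, P4, SC P5 and SC P10 (0.0833 to 0.236) and with the slide as a block (0.0882). Within slide 1 the difference of all eSLCs was -1.65 and within slide 2 it was -0.82. In the table normalized by the authors it was -1.10 and was not called (limma adjusted p = 0.108). Among single probes, of which 16.4% were called lower by limma, the other PSMB9 probes gave -1.18 (called) and -0.96 (not called).

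TAP1 lies between PSMB8 and PSMB9 on chromosome 23 of the cattle assembly ARS-UCD2.0, with no other gene of the table between them. Its signal was higher in eSLCs while those of both neighbours were lower.

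CD74 encodes the invariant chain, which guides class II molecules and is made mainly by antigen-presenting cells. The probe used read 41.2 in I2, 38.5 in I9, 36.2 in N2, 30.7 in N7, 67.9 in P1 and 28.4 in P4, and 33.0 and 40.8 in SC P5 and SC P10. All values lay within 10-fold of the floor, P1 was the highest, and the groups overlapped. The log2 difference was 0.08 (SE 0.34, 95% interval -0.75 to 0.91, limma adjusted p = 0.860). Its sign turned to -0.074 with normexp, -0.052 with quantile normalization and -0.16 in the values normalized by the authors. The other 4 CD74 probes were well above background on 0 to 2 arrays.

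**Figure D3:**
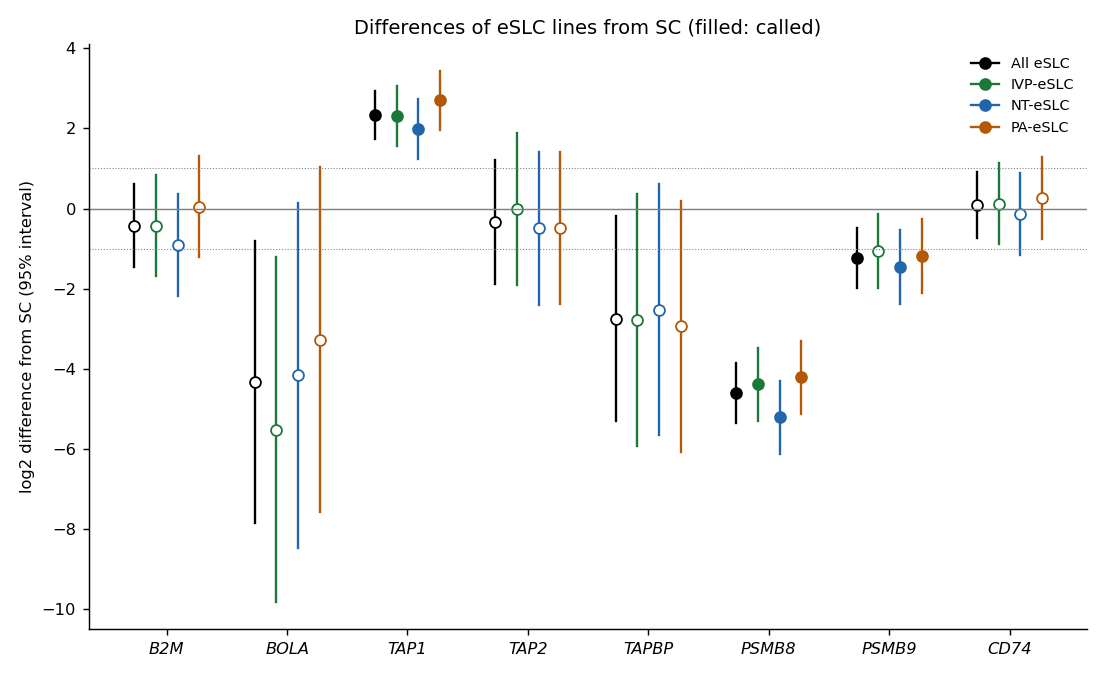
Log2 difference from SCs (points) with 95% intervals from limma (lines) for each gene, over all eSLCs and by origin; filled points were called and dotted lines mark 2-fold. The 4 comparisons share the 2 SC arrays. PSMB8 (-4.60) and TAP1 (2.33) have short intervals on opposite sides of 0, while those of BOLA and TAPBP are several times as long.

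Between origins, no gene of the 8 was called. limma called 0 of 10957 genes, or 0%, for NT-eSLCs against IVP-eSLCs and for PA-eSLCs against IVP-eSLCs, and 0 of the 8 genes had an unadjusted p under 0.05 in either comparison. BOLA, on its brightest probe, was 1.36 higher on the log2 scale in NT-eSLCs than in IVP-eSLCs (95% interval -2.95 to 5.67). It was 2.24 higher in PA-eSLCs (-2.07 to 6.55). Probe A_73_P041976 read 1290 and 2903 in the IVP lines, 4379 and 704 in the NT lines, and 2922 and 572 in the PA lines. Its mean log2 signal was not higher in NT-eSLCs or PA-eSLCs, so these directions depend on the probe. PSMB8 was 0.82 lower in NT-eSLCs than in IVP-eSLCs (log2 difference -0.82, 95% interval -1.73 to 0.09). The intervals of BOLA, TAP2 and TAPBP each include changes of over 4-fold, for TAP2 only toward lower values. With 2 arrays a condition, such differences between origins were therefore not excluded. Lines of 1 origin also differed from each other. For BOLA on its brightest probe, the SD of the log2 signal was 3.52 between P1 and P4. It was 2.37 between N2 and N7 and 0.37 between I2 and I9.

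Each line had its own combination. N7 was the lowest of the 6 lines for TAP1, TAP2, TAPBP, PSMB8 and PSMB9. It was the second highest for BOLA on the brightest probe. P1 was the highest for B2M, BOLA, TAP1, PSMB8 and CD74, and N2 was the highest for TAP2, TAPBP and PSMB9. Since every line had 1 array, the order of neighbouring lines has no error of its own. The mean centred log2 signal of the 8 genes was highest in P1 (0.86) and lowest in N7 (-0.47). Among 2926 other genes with an SD of at least 0.5 over the eSLC arrays, those with the most similar profile over these 6 arrays were FBXO21 (Pearson r = 0.985), INSM2 (0.971), ODF3B (0.969), HBQ1 (0.969) and ADM (0.965). All of them were highest in P1, with FBXO21 at 810 there and at 81.3 to 169 in the other lines, so this likeness rests largely on 1 array.

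The other genes of class I display were taken from lists of related genes. The counts of each list stand beside shares of 15.7% called lower and 19.7% called higher over all genes tested. Among other heavy chains and class I-like molecules, 10 genes were listed, 4 could be tested, and 3 of these were called lower and 0 higher, with a median log2 difference of -2.36. Besides JSP.1 these were FCGRT, the receptor that carries immunoglobulin G across and within cells, and MR1, which presents small metabolites to T cells. FCGRT ranged from 676 to 2804 over the eSLC arrays and was 13889 and 15333 in the SC arrays (log2 difference -3.58, SE 0.62, limma adjusted p = 0.00535, and 0.0685 and 0.0702 without SC P5 and SC P10). MR1 entered the test only through the SC arrays, where it read 58.8 and 68.8. It lay at the floor, and not well above background, on every eSLC array. This made it at least 4.79-fold lower in eSLCs. Its call rests on the floor, where values have no spread, so its adjusted p is not given. For such a bound, a dim array counted at its own value or at the common floor, whichever was higher.

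Of 9 tested genes for peptide loading and trimming, 3 were called lower, 1 was called higher and 5 were not called, and their median was -0.11. The lower ones were ERAP2 and ERAP1, the aminopeptidases that trim peptides in the endoplasmic reticulum, and TAPBPL, a relative of tapasin that edits the bound peptide. ERAP2 read 2380 and 1785 in the SC arrays, 44.9 in I9 and 55.5 in N2, and lay at the floor in the other 4 eSLC lines. Its log2 difference was -6.64 (limma adjusted p = 0.000638). Its other probes gave -3.78 and -0.03, the latter from values of 13.8 or less, so the size depends on the floor and on the probe. TAPBPL ranged from 586 to 771 in eSLCs and was 2808 and 1964 in SC P5 and SC P10 (log2 difference -1.83, SE 0.20, limma adjusted p = 0.000846). ERAP1 had a log2 difference of -1.34 (SE 0.22, limma adjusted p = 0.00440, and 0.0515 without SC P5), and SEC61A1, the channel of the endoplasmic reticulum membrane, one of 1.27 (SE 0.20, adjusted p = 0.00350). The general chaperones CALR, CANX and PDIA3, named outside the rule after their values were seen, had differences of 0.14, 0.04 and -0.11.

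The list of immunoproteasome partners had 2 of 4 called lower and 0 higher, with a median of -1.66. PSMB10, the third inducible catalytic subunit, read 44.9 to 133 in eSLCs against 1446 and 774 in SC P5 and SC P10 (log2 difference -3.66, SE 0.54, limma adjusted p = 0.00286, and 0.0545 without SC P5). PSME1, a subunit of the PA28 activator, read 3381 to 7688 in eSLCs against 31217 and 28952 (log2 difference -2.41, SE 0.35, limma adjusted p = 0.00265). The groups did not overlap for either gene, and all eSLC arrays lay below both SC arrays for 23.6% of all genes tested. Of 14 tested genes listed under the constitutive proteasome, 0 were called lower and 13 were not called. PSMA3 was called higher (log2 difference 1.21, SE 0.19, limma adjusted p = 0.00399). Their differences ran from -0.29 to 1.21 with a median of 0.34. Of this list, the catalytic subunits that PSMB8, PSMB9 and PSMB10 replace are PSMB5, PSMB6 and PSMB7, again named after their values were seen. Their log2 differences were -0.02, 0.43 and 0.25. The other listed subunits are not replaced and do not tell the proteasome forms apart.

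**Figure D4:**
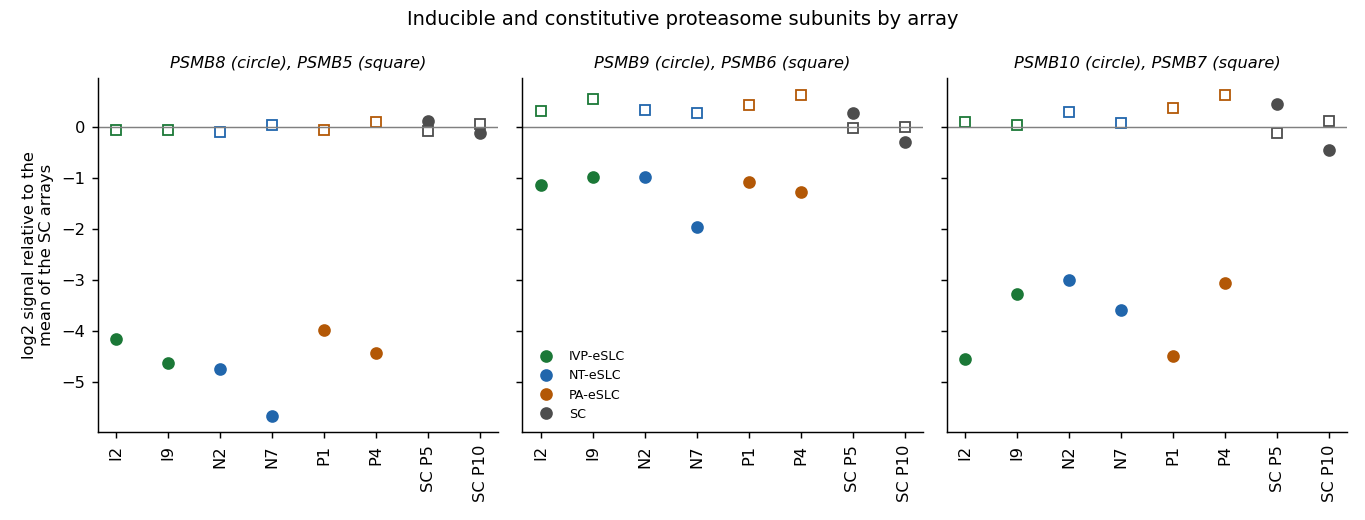
Log2 signal on each array relative to the mean of the 2 SC arrays for the inducible subunits PSMB8, PSMB9 and PSMB10 (filled circles) and the constitutive subunits PSMB5, PSMB6 and PSMB7 in whose place they act (open squares). All circles of eSLC arrays lie below those of SC arrays, and the squares of all 8 arrays stay within 1 unit of 0.

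Of 20 listed regulators of class I genes and of interferon gamma signaling, 14 were tested, 6 were called lower, 2 higher and 6 were not called, with a median of -0.62. IRF1, a transcription factor that interferon gamma induces, had the largest difference. It read 10324 in SC P5 and 4370 in SC P10, and 13.3 to 87.1 in eSLCs with 2 lines at the floor (log2 difference -7.77, limma adjusted p = 0.000184, a size that depends on the floor). The other IRF1 probe gave -1.61, at 55.0 and 29.9 in SC P5 and SC P10 and at the floor in every eSLC line. The kinase JAK1, which binds the interferon receptors, read 1366 to 2280 in eSLCs and 8449 and 7402 in SC P5 and SC P10 (log2 difference -2.14, SE 0.19, limma adjusted p = 0.000407). IRF9 was called lower by -1.83 (SE 0.53, adjusted p = 0.0327), a call that was lost without any 1 of I2, P1, P4, SC P5 and SC P10 (adjusted p between 0.0720 and 0.253) and with the slide as a block (0.0529). STAT2, IRF2 and RELA were also called lower, and NFYA was called higher. IRF8 went the other way. It was not well above background on either SC array and read 83.4 to 596 in eSLCs, at least 21.0-fold higher. It entered the test only through the eSLC arrays, and both SC arrays lay at the floor, so its adjusted p is not given. The call was lost when either SC array was left out. The other IRF8 probe gave a log2 difference of 0.08. It read 15.8 in N2 and 15.3 in P1 and lay at the floor on the remaining arrays, so the IRF8 difference rests on 1 probe. NLRC5, the transactivator of class I genes, was among the 6 listed regulators with no probe here.

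Beside IRF8, which is also known from blood cells, 12 immune cell markers were on the arrays. Of 9 tested markers, 3 were called higher in eSLCs and 0 lower, against 19.7% and 15.7% of all genes tested. The summed signal of the 12 markers was 15617 to 37384 in eSLCs and 7870 to 8514 in SCs. In eSLCs most of it came from PTPRC, LYZ and AIF1. Only 1 of the 4 PTPRC probes was bright, 2 were at the floor on all arrays, and CD3E, ITGAM and CD53 were not tested because of low signal. The part of other cell types in these values was not tested.

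Of 18 listed genes of class II molecules and their pathway, lysosomal proteases among them, 8 were tested. Of these, 2 were called lower, 1 higher and 5 were not called, with a median of 0.59. The shares are not far from the 15.7% lower and 19.7% higher of all genes tested. BOLA-DRA, BOLA-DOB, BOLA-DQA5 and BOLA-DYA were at the floor on all 8 arrays. CTSS, the protease that cuts the invariant chain in antigen-presenting cells, read 22.5 to 65.5 in eSLCs against 8308 and 5577 in SC P5 and SC P10 (log2 difference -7.31, SE 0.31, limma adjusted p = 2.54e-05). CTSL, a related lysosomal protease, read 12968 to 94178 in eSLCs against 187 and 186 (log2 difference 7.24, SE 0.71, limma adjusted p = 0.000594). These proteases also act outside antigen presentation. BOLA-DMB, which edits the peptides of class II molecules, had a log2 difference of -2.61 (SE 0.32, limma adjusted p = 0.00149) on its brightest probe and of -0.13 and -1.84 on probes that lay at the floor on all eSLC arrays.

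**Figure D5:**
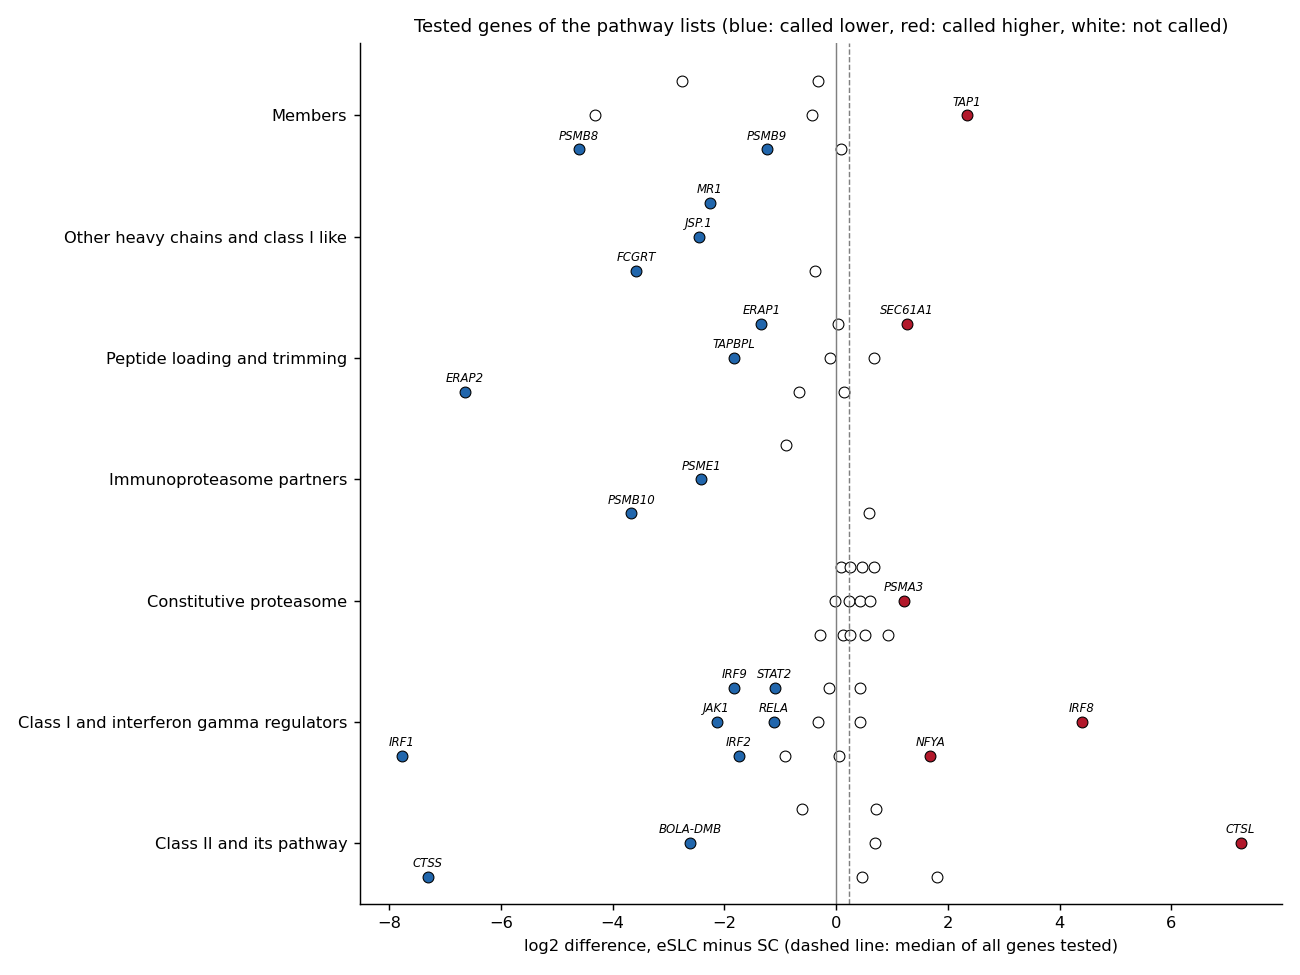
Log2 difference of eSLCs from SCs for each tested gene of the 8 measured genes (top row) and of 6 lists of related genes, with called genes filled and named; heights within a row only separate the points. Immunoproteasome partners and class I regulators lie mostly to the left of 0, and the constitutive proteasome lies near the median of all genes tested (0.23, dashed line). The positions of MR1, ERAP2, IRF1 and IRF8 depend on the floor, and those of ERAP2, IRF1 and IRF8 also on the probe.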

How the data were processed

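One-colour Agilent bovine arrays, 8 in all, held RNA of the 6 eSLC lines and the 2 SC samples. The authors quantified the scans with Feature Extraction (version 11.5.1.1 per the file headers) and deposited linear signal intensities of each spot, not normalized between arrays, and a table of linear intensities after their own normalization in GeneSpring GX, whose settings are not given in the sources used here.

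The background-subtracted signal was used, since the processed signal of 6 files did not follow it (Spearman rho 0.161 to 0.216 over all probes, against 0.971 and 0.973 in N2 and I2). Control spots and scanner outliers (1 to 11 an array) were left out and 0 spots were saturated. Signals of 43653 probes were averaged over spots, divided by the 75th percentile of the array (1192 to 4092 scanner units, which exceeded the dimmest signal still well above background 75.3-fold to 136-fold), raised to a common floor and taken to log2. The number of arrays limits the precision. RefSeq accessions named 26743 probes and 12603 genes, of which 8164 had several probes, and the brightest was used. The array design was annotated on UMD 3.1 and gene names and order came from ARS-UCD2.0, so no coordinates or sequences are given.

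Conditions were compared with limma 3.58.1 in R 4.3.3 (1 fit of all 8 arrays, a mean per condition, eSLCs as the mean of the 3 origins). A gene entered the test if, in 1 condition or more, all arrays read it well above background. The fit was tested on simulated data. Alternatives were the processed signal, normexp (offset 50, on median spot and background signals, as the mean signal is not in the files), the authors' normalized table scaled in the same way, median scaling, no filter, quantile normalization, the mean of probes, a filter requiring all 8 arrays, a fit of only the conditions compared, SC arrays as 1 sample, the methods' t-test (p-values adjusted by Benjamini-Hochberg), the slide as a block, values within slides and leaving out each array. Leaving out I9 and N2 and testing each probe were added after seeing the data. Figures were drawn with matplotlib 3.10.9 in Python 3.11.15.

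The genes and lists were chosen with earlier results of these data known. From each list, genes called in eSLCs against SCs were named, with values for at most the 4 largest differences. Some listed genes are not reported here. Marker lists covered fibroblasts, trophectoderm, early lineages (1 of 4 tested genes, SOX2, called lower), immune cells and endothelium (1 of 4, PECAM1, called higher).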

Additional observations from a re-analysis of the deposited data

How the results depend on the processing

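With 2 arrays a condition, the calls near the threshold moved with the setting. Over all eSLCs, 2 genes were called lower and 1 higher. The counts were 0 and 0 with the processed signal, which is out of step in 6 files. There were 3 lower with normexp, median scaling, quantile normalization, the filter on all 8 arrays and the mean of probes. There was 1 lower with the SC arrays as 1 sample, 0 higher in the authors' normalized table, and 1 to 3 lower and 1 higher when single arrays were left out, where a lone array of a condition is assumed to vary like the others. For IVP-eSLCs, 1 lower and 1 higher became 0 and 0 with the processed signal. There were 2 lower with normexp, the authors' table, median scaling, quantile normalization, the filter on all 8 arrays, the mean of probes, only the conditions compared, the methods' t-test and without I9 and N2, and 0 higher in the authors' table and by the methods' t-test, with 1 to 2 lower and 1 higher when arrays were left out. For NT-eSLCs, 2 lower and 1 higher became 0 and 0 with the processed signal and by the methods' t-test. There was 1 lower in the authors' table, with no filter, with only the conditions compared and with the SC arrays as 1 sample, 0 higher in the authors' table and without I9 and N2, and 1 to 2 lower and 1 higher when arrays were left out. For PA-eSLCs, 2 lower and 1 higher became 0 and 0 with the processed signal. There were 3 lower with only the conditions compared. There was 1 lower with no filter, the mean of probes, the SC arrays as 1 sample, the methods' t-test and the slide as a block, 0 higher in the authors' table and by the methods' t-test, and 1 to 2 lower and 1 higher when arrays were left out. Between origins the counts were 0 in every alternative run, the methods' t-test included. The cause of these moves was not tested.

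Signs turned mostly with the processed signal, where the log2 differences of eSLCs from SCs were 2.01 for BOLA, 1.20 for PSMB8, 1.89 for PSMB9, 1.14 for JSP.1, 0.47 for MR1, 0.26 for ERAP2 and 2.93 for PSME1. By origin they were 2.16 for PSMB8 and 2.80 for PSMB9 in IVP-eSLCs, 1.45 and 2.39 in NT-eSLCs, and 0.48 for PSMB9 in PA-eSLCs. The TAP1 difference of IVP-eSLCs was -0.0040 in the authors' table. CD74, never called, was -0.074 with normexp, -0.16 in the authors' table and -0.052 with quantile normalization, and ran from -0.13 to 0.29 when arrays were left out. TAP2 then ran from -0.69 to 0.022. The calls of PSMB8 against SCs held in every other alternative run over all eSLCs, for IVP-eSLCs and for PA-eSLCs, and for NT-eSLCs in all but the methods' t-test (adjusted p = 0.0787). In the authors' table PSMB9 lost its call over all eSLCs and TAPBP gained one, so the genes called lower there were not the same. Among list genes, SEC61A1 (limma adjusted p = 0.0646), PSMA3 (0.380) and BOLA-DMB (0.429) lost their calls in the authors' table. The median log2 difference of all genes tested was 0.23, 0.12 with quantile normalization, 0.06 in the authors' table and 0.41 with the processed signal. No paired analysis was possible because the labels call every sample replicate 1, and the numbers 1 and 2 used here within a condition only follow the order of deposit. TAP2 and TAPBP rest on 1 probe each, and CD74 signals were close to the background.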

Other observations

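BOLA-DQB, which encodes a class II beta chain, had no call against SCs but differed between the eSLC lines, and was singled out after its values were seen. Its brightest probe read 1067 in I2, 942 in P1, 202 in P4, 112 in N2, 79.6 in I9 and 72.1 in N7, and 62.7 and 66.7 in SC P5 and SC P10. The log2 difference of eSLCs from SCs was 1.80 (SE 1.05, limma adjusted p = 0.205). The other 2 probes of BOLA-DQB lay at the floor on every array but P4, where 1 of them read 25.4. On the brightest probes P1 was thus high for this class II gene and for BOLA, whereas I2 was high for this gene and N7 for BOLA.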
